A study of Oryza sativa with 16 samples.

Results

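The HD-Zip class I homeobox factors of rice were followed across 16 Affymetrix rice genome arrays. The members are 10 genes, HOX4, HOX5, HOX6, HOX8, HOX12, HOX16, HOX20, HOX21, HOX22 and HOX24, each taken with every probe set that the array's gene annotation pairs with its symbol or a synonym. They gave 14 probe sets of the 57194 on the array that are not controls, and 10 genes of the 17905 that the annotation names. HOX16 has 3 probe sets, HOX5 and HOX20 have 2 each, and the other genes have 1. Where a gene has several, the brightest on average stands for it and the others are given beside it.

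HD-Zip proteins occur in plants only. Each joins a homeodomain, which binds DNA, to a leucine zipper, through which 2 of the proteins pair, and class I members bind a short palindromic site as such pairs. In Arabidopsis the best known of them, ATHB7 and ATHB12, are induced by water deficit and by the stress hormone abscisic acid, and feed back on the hormone's signalling by raising its phosphatases. HOX6, HOX22 and HOX24 are the closest rice relatives of that pair. HOX12 is known in rice for acting on EUI1, a gibberellin-inactivating enzyme, and HOX4 for its link to gibberellin responses and plant height.

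The study set a sensitive variety beside a tolerant one for each stress. VSR156 (salt-sensitive) and CSR11 (salt-tolerant) were compared under salt and control, and IR64 (drought-sensitive) and Vandana (drought-tolerant) under drought and control, with 2 arrays, A and B, in each of 8 groups. Per the labels, leaf RNA was taken from 2-week-old hydroponic seedlings after 24 h in 50 mM NaCl, or after 24 h out of the medium. The study's methods give a higher salt concentration and a shorter drought, so the dose and time are not settled here. The study names leaf, shoot and whole plants in different places, so the tissue is not settled either. The labels do not say whether A and B came from separate plants, so the p-values measure the spread between arrays, which may be technical. With 2 arrays a group, their number limits the precision.

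Levels are given as log2(intensity + 16) after quantile normalization over all arrays, unless a value is called deposited. A difference is the stressed mean minus the control mean on that scale, with its standard error (SE) and an adjusted p from limma over all 57194 probe sets. A call needs an adjusted p under 0.05 and a difference of at least 1 in size, and the difference between the responses of 2 varieties is called at the adjusted p alone.

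The arrays were not alike in brightness. The mean deposited intensity was 36.2 and 22.9 on the VSR156 salt arrays, against 133 and 114 on the VSR156 control arrays. On the CSR11 salt arrays it was 94.8 and 9.16, against 46.6 and 92.2 on the CSR11 control arrays, and on the 8 arrays of the drought experiment it ran between 99.8 and 230. The 3′ over 5′ signal of the GAPDH control, a sign of RNA quality, was 7.68 and 8.16 (log2) in VSR156 salt, against 4.88 and 4.61 in VSR156 control. It was 3.32 and 6.35 in CSR11 salt, against 3.05 and 2.05 in CSR11 control, and 1.21 and 1.34 in Vandana control, against at most 0.605 on the other 6 arrays of the drought experiment. The 7 measured leaf markers of 8 listed were bright on all arrays, with summed normalized intensities between 10350 and 18620. The sum was lower under drought, at 10920 and 10890 in IR64 drought, against 17520 and 17450 in IR64 control, and at 10350 and 10400 in Vandana drought, against 18620 and 18380 in Vandana control. Of the 7 leaf markers 3 fell in each variety, led by FBPASE, a fructose-bisphosphatase (-2.73 in IR64 and -3.34 in Vandana). The 5 root markers moved with the salt groups. Their sum was 4661 and 4504 in VSR156 salt, against 2214 and 2140 in VSR156 control, and 3134 and 3471 in CSR11 salt, against 6765 and 6546 in CSR11 control. In the drought experiment the sum was 1981 and 1998 in IR64 drought, against 2798 and 2648 in IR64 control, and 1915 and 2025 in Vandana drought, against 1796 and 1903 in Vandana control, most of it from HAK5, a potassium transporter that was bright everywhere. LSI2, a silicon exporter of roots, had a deposited intensity of at most 2.25 there.

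The members spanned the whole range of brightness. HOX16 was the brightest, with a mean level at the 99.8th percentile of all probe sets and levels between 10.69 and 11.79 on the 16 arrays. HOX5 and HOX4 followed, at the 95.4th and 91.9th percentiles, and HOX8 was the dimmest of the representative probe sets, at the 64.5th. HOX24 ranged the furthest between arrays, with deposited intensities between 3.12 and 3320. The dimmest HOX16 probe set never passed a deposited intensity of 2.87 and gave no call in any comparison. No detection calls were used here, so a dim value cannot be told from background.

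**Figure D1:**
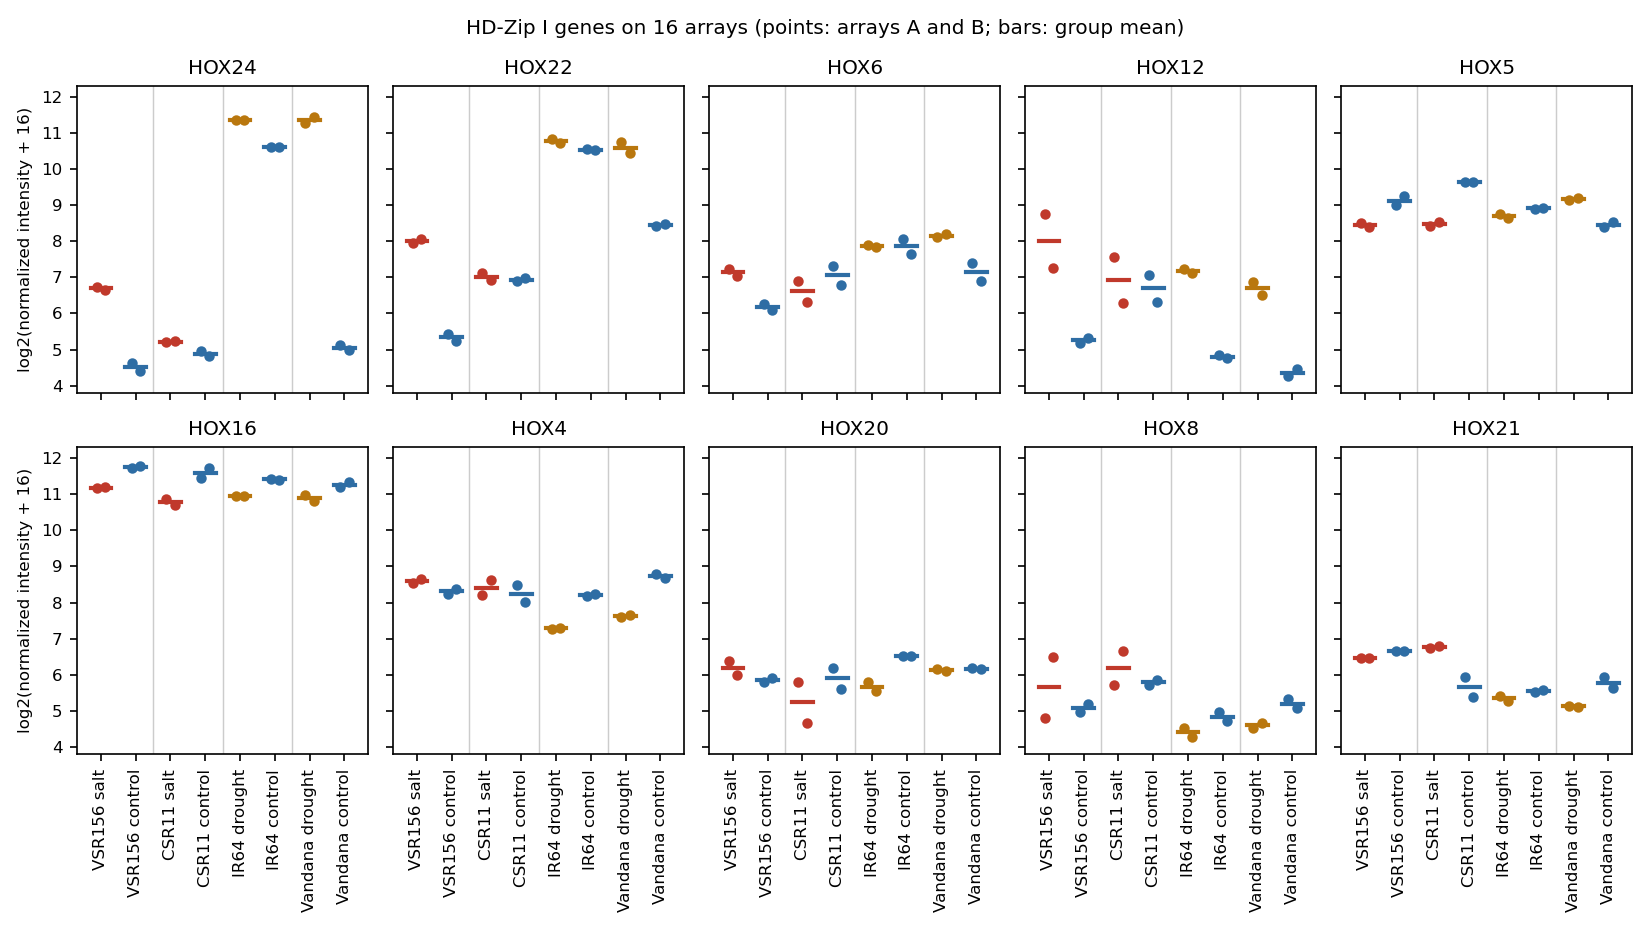
Levels of the 10 HD-Zip I genes (brightest probe set of each), as log2(normalized intensity + 16), by group, with stress in red (salt) or ochre (drought) and control in blue. Points are arrays A and B and bars are group means. HOX24 and HOX22 lie near 11 in 3 groups of the drought experiment and lower in Vandana control, and HOX12 is higher in the drought arrays than in the control arrays of both varieties.

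Drought gave the largest response of any member. In Vandana, HOX24, HOX12 and HOX22 rose and HOX4 fell, which makes 4 of 14 probe sets called (28.6%), against 11.8% of all probe sets (5.25% upward and 6.52% downward). In IR64, HOX12 rose and 1 of the 3 HOX16 probe sets fell, which makes 2 of 14 called (14.3%), against 6.96% of all probe sets (3.01% upward and 3.95% downward). Many of all probe sets are dim. Among the 18779 with a mean intensity of 32 or more, 30.9% were called in Vandana and 19% in IR64. The member shares under drought thus cannot be read as particular to the members. The median difference over the 10 genes was 0.34 in Vandana, against 0.01 over all probe sets, and -0.21 in IR64, against 0.00 (0.00205) over all probe sets.

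HOX24 is a relative of ATHB7 and ATHB12 that is known in rice as a stress-inducible factor. Its level was 11.28 and 11.45 on the Vandana drought arrays, against 5.13 and 4.98 on the Vandana control arrays. The deposited intensities were 2726 and 2703 under drought, against 20.9 and 31.5 in control, so the groups lay far apart before any normalization. The difference was 6.31 (SE 0.117, adjusted p = 3.63e-10), or 79.4-fold on the scale with 16 added. In IR64, HOX24 was at 11.35 and 11.35 under drought, against 10.60 and 10.62 in control. That difference was 0.74 (SE 0.117, adjusted p = 0.00109), below the fold required for a call. The drought arrays of both varieties thus reached nearly the same level, and it was the controls that lay apart. The drought response of IR64 minus that of Vandana was -5.57 (SE 0.166, adjusted p = 8.2e-09).

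HOX22, the nearest relative of HOX24 and a factor linked to abscisic acid in rice, had the same order of groups at smaller size. It was at 10.74 and 10.45 in Vandana drought, against 8.43 and 8.49 in Vandana control. The difference was 2.14 (SE 0.125, adjusted p = 2.68e-07). In IR64 it was at 10.82 and 10.73 under drought, against 10.55 and 10.52 in control, and the difference of 0.24 (SE 0.125, adjusted p = 0.289) was not called, with a 95% interval of -0.03 to 0.52. The difference between the responses was -1.89 (SE 0.177, adjusted p = 4.52e-05).

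HOX6, also a relative of ATHB7 and ATHB12, differed by 0.9975 in Vandana (SE 0.240, adjusted p = 0.0103), just under the fold required. Its levels were 8.11 and 8.20 in Vandana drought, against 7.41 and 6.91 in Vandana control, without overlap. In IR64 the arrays overlapped, at 7.89 and 7.84 under drought, against 8.06 and 7.66 in control.

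HOX12 was the only member called in both varieties under drought. Its level was 6.88 and 6.50 in Vandana drought, against 4.26 and 4.46 in Vandana control. In IR64 it was 7.24 and 7.12 under drought, against 4.84 and 4.76 in control. The differences were 2.33 in Vandana (SE 0.471, adjusted p = 0.00345) and 2.37 in IR64 (SE 0.471, adjusted p = 0.00503). Both sets of control arrays were dim, with deposited intensities of 3.73 and 11.1 in Vandana and 11.7 and 11.7 in IR64. The responses differed by 0.04, with a 95% interval of -1.43 to 1.51, which is too wide to show that they were alike. The fit pools the spread of all 8 groups. For HOX12 the standard deviation was 1.06 in VSR156 salt and 0.914 in CSR11 salt, against at most 0.266 in the drought experiment. EUI1, the known target of HOX12, was not called under drought in either variety (-0.92 in IR64 and -0.53 in Vandana). EUI1 was at 5.96 and 5.77 in IR64 drought, against 6.89 and 6.66 in IR64 control.

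HOX4 lay lower in the drought arrays of both varieties. It was at 7.61 and 7.65 in Vandana drought, against 8.80 and 8.67 in Vandana control, a difference of -1.10 (SE 0.167, adjusted p = 0.000452). In IR64 it was at 7.27 and 7.29 under drought, against 8.19 and 8.24 in control. That difference was -0.93 (SE 0.167, adjusted p = 0.00264), which missed the fold required, and the 2 responses differed by 0.18 (95% interval -0.34 to 0.69). The stressed and control arrays did not overlap in either variety.

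HOX5, a transcriptional activator in reporter assays, gave values of opposite sign in the 2 varieties. It was at 9.13 and 9.21 in Vandana drought, against 8.39 and 8.52 in Vandana control, and at 8.76 and 8.65 in IR64 drought, against 8.89 and 8.93 in IR64 control. Neither response was called (0.72 in Vandana, -0.21 in IR64), while the difference between them was -0.92 (SE 0.160, adjusted p = 0.00403). The dimmer HOX5 probe set gave -1.18 for the same difference (SE 0.290, adjusted p = 0.0296). The brighter one lost its call with deposited values (-0.16, adjusted p = 0.967) and with arrays centred on their medians (-0.50, adjusted p = 0.848). It was also lost with a pseudocount of 1 (-0.96, adjusted p = 0.121) and against the other variety's control (-0.01).

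The remaining members moved less under drought. The brightest HOX16 probe set differed by -0.46 in IR64 (adjusted p = 0.0267) and by -0.36 in Vandana (adjusted p = 0.0578), both under the fold. The HOX16 call in IR64 came from the second probe set, at 7.13 and 6.85 under drought, against 8.48 and 7.76 in control (-1.13, SE 0.336, adjusted p = 0.0463). Without any one of 7 arrays of the drought experiment (all but IR64 control B) that call was lost, with differences between -1.26 and -0.77. The 2 HOX20 probe sets agreed closely, at -0.86 and -0.86 in IR64 (adjusted p = 0.0962 and 0.0860) and at -0.03 and -0.01 in Vandana. HOX21 differed by -0.66 in Vandana (adjusted p = 0.0124) and by -0.21 in IR64. HOX8 was not called in either variety (-0.61 in Vandana and -0.44 in IR64).

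**Figure D2:**
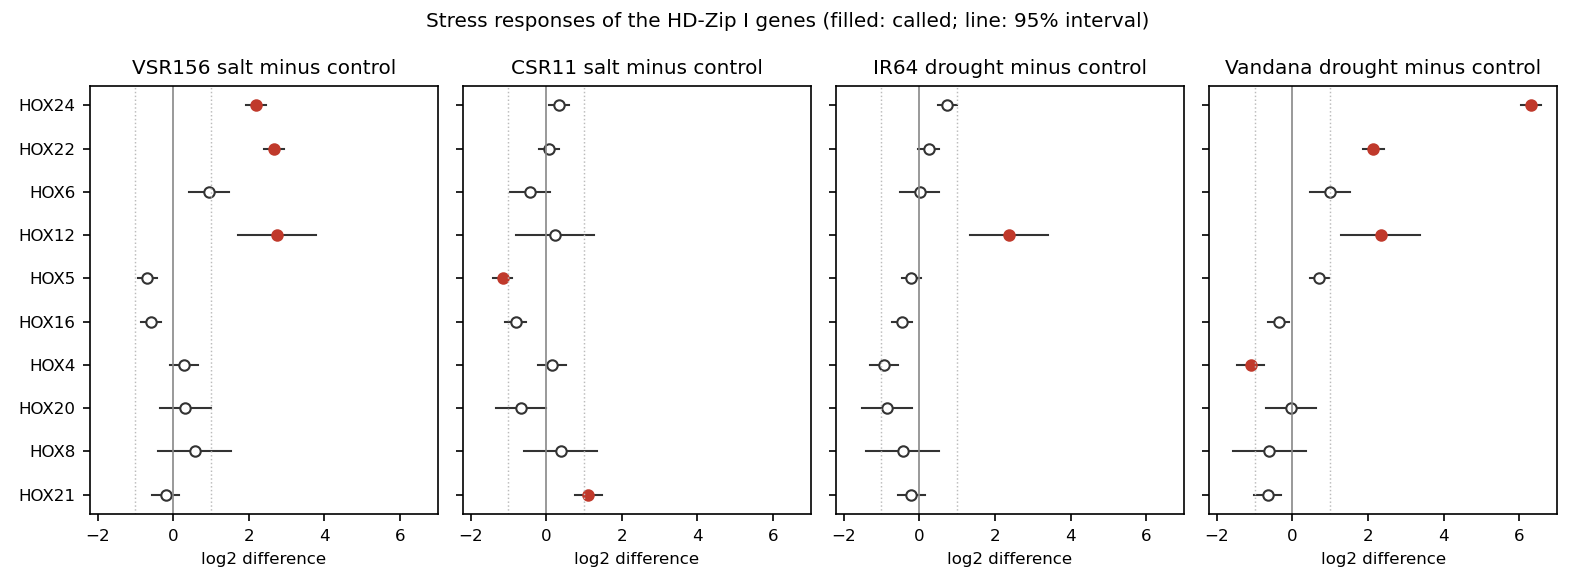
Stress minus control (log2) for the 10 genes in the 4 varieties, with 95% intervals from the fit. Filled points are called (adjusted p under 0.05 and a difference of at least 1 in size, dotted lines). HOX24 in Vandana stands at 6.31, and HOX12 is called in every variety but CSR11.

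The control arrays of the drought experiment differed from each other in 2 members. HOX24 was at 10.60 and 10.62 in IR64 control, against 5.13 and 4.98 in Vandana control, a difference of 5.55 (SE 0.117, adjusted p = 1.7e-09) that ranked 14th by size among all 57194 probe sets. HOX22 differed by 2.08 (SE 0.125, adjusted p = 1.07e-06) and ranked 603rd. Those 2 calls of 14 probe sets (14.3%) stand against 4.75% of all probe sets (2.61% upward and 2.14% downward), and against 12.4% of those with a mean intensity of 32 or more. None of the other 8 genes was called between these controls, and the next by size of the brightest probe sets was HOX6, at 0.70 (adjusted p = 0.107). Of the 5 root markers 1 was also called between these controls, the iron transporter IRT1, higher in IR64 control (1.70, adjusted p = 0.000189), and it fell in IR64 drought (-1.92, adjusted p = 4.77e-05). In the drought response difference 2 of the 5 were called lower, led by IRT1 (-1.48, adjusted p = 0.0067). The GAPDH 3′ over 5′ signal was highest in Vandana control within the drought experiment. The part of either in the HOX24 and HOX22 differences was not tested.

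The drought arrays were also set beside both controls at other probe sets. At the 205 probe sets that lay at least 3 (log2) apart between the IR64 and Vandana controls, members left out, the arrays labelled Vandana drought were nearer to IR64 control at 181 (88.3%) and the arrays labelled IR64 drought at 124 (60.5%). The set was picked by the gap between the controls alone. It includes genes that rose in Vandana drought, such as PP2C68 (4.60) and ABA8OX2 (3.21). Nearness there mixes drought response with variety, so those values cannot settle which variety each drought array holds. Each drought group was therefore also compared with the opposite variety's control. The arrays labelled IR64 drought then gave 6.30 for HOX24 (adjusted p = 3.73e-10), 2.32 for HOX22 (adjusted p = 1.79e-07) and -1.45 for HOX4 (adjusted p = 6.29e-05). The arrays labelled Vandana drought gave 0.76 for HOX24 (adjusted p = 0.00103), 0.06 for HOX22 (adjusted p = 0.912) and -0.58 for HOX4 (adjusted p = 0.0405), none of them a call. The differences between the responses turned to 5.54 for HOX24 and 2.26 for HOX22. Since the drought groups had close levels, that turn follows by arithmetic from the gap between the controls. HOX12 kept its call in both varieties with either control.

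Some other genes of the abscisic acid pathway also differed between the drought controls. Called higher in IR64 control than in Vandana control were 6 of 7 group A phosphatases, 2 of 3 bZIP and B3 factors, 1 of 2 breakdown enzymes and 3 of 10 SnRK2 kinases. PYL5, the only hormone receptor measured, was lower there (-1.25, adjusted p = 0.000618), and ZEP1, the only synthesis gene measured, was not called. Of the group A phosphatases, which hold the pathway off until the hormone binds its receptors, 7 of 10 listed were measured. Of these 6 rose in Vandana drought and 3 in IR64 drought, with medians of 3.25 and 0.24. PP2C68, the largest of them in Vandana, was at 9.90 and 9.73 in Vandana drought, against 5.18 and 5.25 in Vandana control (4.60, adjusted p = 3.83e-06). In IR64 it was at 9.37 and 9.46 under drought, against 9.39 and 9.50 in control. PP2C51 led in IR64 (2.16, adjusted p = 2.05e-06).

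Both measured enzymes of abscisic acid breakdown rose in Vandana, led by ABA8OX2 (3.21, adjusted p = 5.84e-09), and neither was called in IR64. All 3 measured bZIP and B3 factors of the pathway rose in Vandana, led by ABF2 (1.70, adjusted p = 5.82e-05), and 0 of 3 in IR64. Of the 10 SnRK2 kinases, which act below the phosphatases, 4 rose in Vandana, led by SAPK6 (2.48, adjusted p = 4.6e-05), and 1 rose in IR64, SAPK1 (1.17, adjusted p = 0.00285). PYL5 fell in Vandana (-1.28, adjusted p = 0.000184) and was at 0.24 in IR64. ZEP1 was not called in either variety. The summed intensity of 7 dehydrins and other late embryogenesis proteins, a list chosen after values were seen, was 20080 and 20990 in Vandana drought, against 2029 and 2335 in Vandana control. It was 20930 and 21150 in IR64 drought, against 6621 and 6276 in IR64 control.

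**Figure D3:**
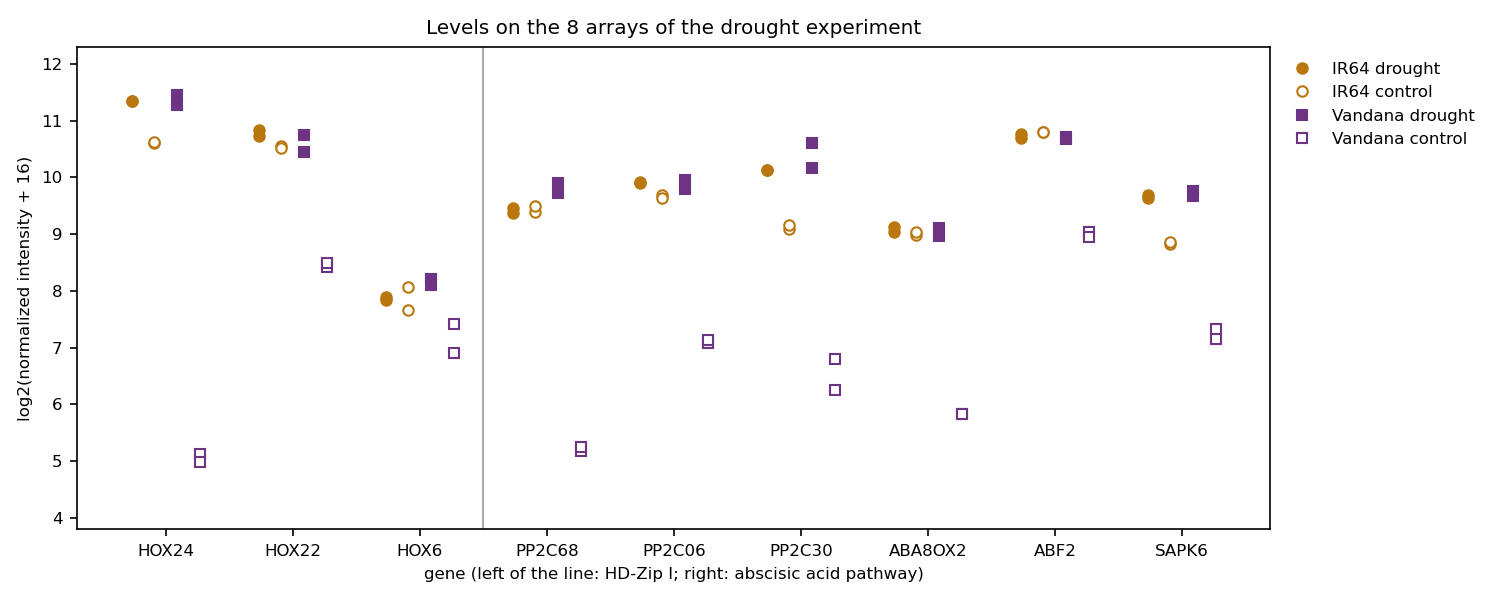
Levels of HOX24, HOX22 and HOX6 and of 6 genes of the abscisic acid pathway on the 8 arrays of the drought experiment, as log2(normalized intensity + 16), with filled marks for drought and open marks for control. The 6 were picked from the measured pathway genes, and all lie lower in Vandana control than in IR64 control. Some genes not shown lie the other way, such as PYL5 (8.37 in Vandana control, 7.12 in IR64 control). At HOX24, PP2C68 and ABA8OX2 the Vandana control arrays lie near 5 to 6 and the other 6 arrays near 9 to 11.

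Under salt the calls rested on how the arrays were set to a common level. In VSR156, HOX12, HOX22 and HOX24 rose and no member fell. These 3 of 14 probe sets (21.4%) stand against 7.75% of all probe sets, with 3.33% upward and 4.42% downward. In CSR11, HOX21 rose and HOX5 and the second HOX16 probe set fell, which makes 3 of 14 (21.4%), against 6.33% of all probe sets (2.37% upward and 3.97% downward). Among probe sets with a mean intensity of 32 or more, 19.7% were called in VSR156 and 17.3% in CSR11, close to the member shares. With the deposited values left as they were, VSR156 had 0 members up and 4 of 14 down, where 13 of all probe sets were called up and 13015 down (22.8% in all). After centring of the array medians it had 0 members up and 2 of 14 down, where 111 of all probe sets were called up and 9664 down (17.1% in all). Calls on those scales thus ran almost all downward over the whole array, and member falls there are no sign of anything particular to the members. Deposited values put the median difference of all probe sets at -0.53 in VSR156 and at -0.16 in CSR11, against 0.02 in both after quantile normalization. The uncalled VSR156 differences of HOX6, HOX4, HOX8 and HOX20 were above 0 after quantile normalization and below 0 on both other scales.

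HOX22 was at 7.96 and 8.05 in VSR156 salt, against 5.43 and 5.24 in VSR156 control, and at 7.11 and 6.92 in CSR11 salt, against 6.90 and 6.97 in CSR11 control. The difference was 2.67 in VSR156 (SE 0.125, adjusted p = 3.51e-07) and 0.07 in CSR11 (95% interval -0.20 to 0.35). The deposited intensities in VSR156 were 68.0 and 43.6 under salt, against 47.6 and 31.9 in control. In rank the probe set stood at the 89.6th and 90.2nd percentiles of the salt arrays, against the 67.5th and 65.1st of the control arrays. Its VSR156 difference was 0.36 with deposited values (adjusted p = 0.741) and 0.91 with arrays centred (adjusted p = 0.180).

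HOX24 was at 6.74 and 6.66 in VSR156 salt, against 4.63 and 4.40 in VSR156 control. In CSR11 it was at 5.21 and 5.23 under salt, against 4.97 and 4.81 in control. The difference was 2.19 in VSR156 (SE 0.117, adjusted p = 8.24e-07) and 0.33 in CSR11 (adjusted p = 0.084). With deposited values the VSR156 difference was 0.44 (adjusted p = 0.299), and with arrays centred 0.98 (adjusted p = 0.00836). All 8 salt-experiment arrays had deposited HOX24 intensities of at most 25.6, near the 20.9 and 31.5 of Vandana control and far under the lowest of 1677 in IR64. The varieties and experiments differ, so the 2 stresses were not tested against each other.

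HOX12 rose by 2.74 in VSR156 (SE 0.471, adjusted p = 0.00193) on arrays that lay apart from each other, at 8.75 and 7.25 under salt, against 5.18 and 5.33 in control. Neither salt array overlapped the controls. The SE pools the spread of all 8 groups, while the standard deviation between the VSR156 salt arrays was 1.06. In CSR11 the arrays overlapped, at 7.58 and 6.29 under salt, against 7.07 and 6.33 in control. The VSR156 call was lost when only its 4 arrays entered the fit (adjusted p = 0.0577) and when the salt experiment was normalized alone (2.39, adjusted p = 0.0505). With deposited values the difference was 0.54 (adjusted p = 0.672). EUI1 rose in VSR156 (1.21, adjusted p = 0.0361), with levels of 5.88 and 5.87 under salt, against 4.79 and 4.55 in control, and was not called in CSR11 (-0.77).

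HOX6 was at 7.24 and 7.04 in VSR156 salt, against 6.27 and 6.10 in VSR156 control, a difference of 0.96 (SE 0.240, adjusted p = 0.0173) that missed the fold but passed it without VSR156 salt B (1.06). In CSR11 it was at 6.91 and 6.32 under salt, against 7.31 and 6.80 in control (-0.44, adjusted p = 0.271).

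HOX5 was lower under salt in both varieties. It was at 8.43 and 8.54 in CSR11 salt, against 9.63 and 9.64 in CSR11 control, and the difference of -1.15 (SE 0.113, adjusted p = 9.95e-05) was a call. In VSR156 it was at 8.50 and 8.39 under salt, against 9.01 and 9.25 in control, a difference of -0.68 (adjusted p = 0.0016) short of the fold. Its VSR156 difference was -2.90 with deposited values and -2.35 with arrays centred, on scales where nearly all called probe sets were down, so these values do not bear on its direction. The CSR11 call was lost with deposited values (-2.09, adjusted p = 0.55) and with arrays centred (-1.94, adjusted p = 0.263). It was also lost with only the 4 CSR11 arrays (adjusted p = 0.165), a fit that called 0 of all 57194 probe sets. The dimmer HOX5 probe set gave differences of -0.01 in both varieties.

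HOX16, the brightest member, was likewise lower in both. Its brightest probe set was at 10.87 and 10.69 in CSR11 salt, against 11.45 and 11.72 in CSR11 control (-0.81, adjusted p = 0.00118). In VSR156 it was at 11.17 and 11.19 under salt, against 11.73 and 11.79 in control (-0.58, adjusted p = 0.00656). Neither difference reached the fold. The second HOX16 probe set fell in CSR11, at 4.73 and 5.09 under salt, against 7.20 and 6.41 in control (-1.89, SE 0.336, adjusted p = 0.00314), and was at 0.42 in VSR156 (adjusted p = 0.504). The dimmest HOX16 probe set was at 0.14 in CSR11 and -0.06 in VSR156, neither a call. In CSR11 the brightest and the second probe set thus agreed in sign but not in size, and the dimmest cannot be told from background. In VSR156 the second was above 0, on arrays that overlapped the controls, and the brightest below 0.

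HOX21 rose in CSR11, at 6.75 and 6.80 under salt, against 5.94 and 5.38 in control (1.12, SE 0.163, adjusted p = 0.000979). In VSR156 it was at 6.47 and 6.47 under salt, against 6.67 and 6.66 in control (-0.19, adjusted p = 0.522). Without CSR11 control B the CSR11 difference was 0.85, under the fold required. The call was also lost with deposited values (0.13), with arrays centred (0.28, adjusted p = 0.825) and with a pseudocount of 64 (0.67). The same held when the salt experiment was normalized alone (0.95) and when only the 4 arrays entered the fit (adjusted p = 0.216). HOX4 was not called in either variety (0.29 in VSR156 and 0.16 in CSR11), and HOX8, whose salt arrays lay apart at 4.80 and 6.50 in VSR156 and at 5.71 and 6.65 in CSR11, was not called either. Its VSR156 difference was 0.57, and 1.44 without VSR156 salt A (adjusted p = 0.0131).

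The 2 HOX20 probe sets went opposite ways in CSR11, at -0.67 (adjusted p = 0.183) and 0.85 (adjusted p = 0.0806). The gap came from CSR11 salt B, the dimmest array, at 4.67 on one probe set and 6.72 on the other. CSR11 salt A was at 5.81 and 5.64. Without CSR11 salt A the 2 values were -1.24 and 1.40, both called, and 5 of 14 member probe sets were called in CSR11. Calls over all probe sets were then 15.8%, against 6.33% with both salt arrays.

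**Figure D4:**
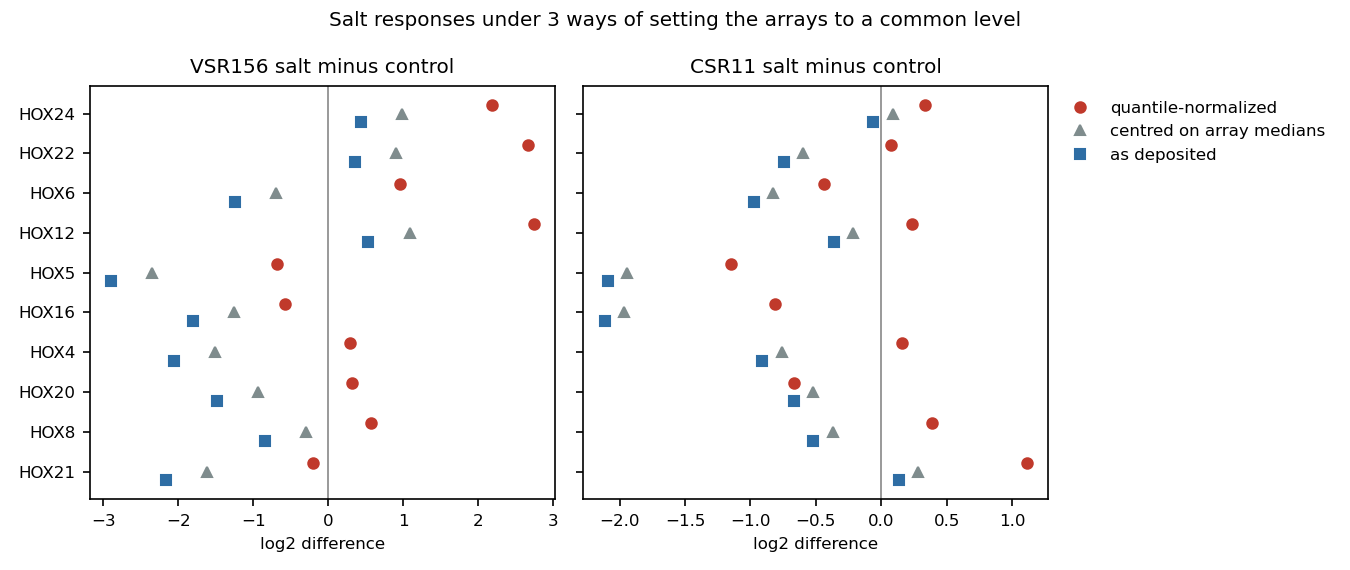
Salt minus control (log2) of the 10 genes in VSR156 and CSR11 under 3 ways of setting the arrays to a common level, by quantile normalization (red circles), by centring each array on its median (grey triangles) and as deposited (blue squares). In VSR156 HOX22 runs between 2.67 and 0.36 and HOX24 between 2.19 and 0.44, above 0 on each scale, HOX5 stays below 0, and HOX6, HOX4, HOX20 and HOX8 change sign, on scales where nearly all called probe sets are down.

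The salt response of VSR156 minus that of CSR11 was called at 6 of 14 probe sets (42.9%), against 9.04% of all probe sets (4.39% positive and 4.65% negative). Among probe sets with a mean intensity of 32 or more the share was 27.7%. The member difference was positive or negative as follows. It was positive for HOX22 (2.60, SE 0.177, adjusted p = 1.02e-05), HOX24 (1.85, SE 0.166, adjusted p = 8.11e-05), HOX12 (2.51, SE 0.666, adjusted p = 0.0395), the second HOX16 probe set (2.31, SE 0.476, adjusted p = 0.0122) and HOX6 (1.39, SE 0.339, adjusted p = 0.0268). It was negative for HOX21 (-1.31, SE 0.230, adjusted p = 0.00529). None of the 6 was called with deposited values or with centred arrays, where limma found 1 and 3 of 14 at an unadjusted p under 0.05. On those scales 0.463% and 0.6% of all probe sets were called. The HOX6 difference turned to -0.27 with deposited values. The drought response of IR64 minus that of Vandana was called at 4 of 14 probe sets (28.6%), against 7.41% of all probe sets (3.76% positive and 3.65% negative), for HOX24, HOX22 and both HOX5 probe sets. Among probe sets with a mean intensity of 32 or more the share was 21.5%.

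The unstressed salt varieties also differed. In VSR156 control, against CSR11 control, HOX22 was lower by a difference of -1.60 (SE 0.125, adjusted p = 8.77e-06), the second HOX16 probe set by -1.80 (SE 0.336, adjusted p = 0.00497), and HOX21 higher by 1.01 (SE 0.163, adjusted p = 0.00192). These 3 of 14 (21.4%) stand against 4.94% of all probe sets (2.11% upward and 2.83% downward), and against 12.5% of those with a mean intensity of 32 or more. The HOX16 call was lost without VSR156 control A (adjusted p = 0.0633) and without CSR11 control A (adjusted p = 0.0544). HOX21 fell short of the fold without any one of 6 arrays, at the lowest 0.73 without CSR11 control B. HOX22 was at 5.43 and 5.24 in VSR156 control, against 6.90 and 6.97 in CSR11 control. EUI1 was lower too, by a difference of -2.04 (adjusted p = 0.00299). So were 4 of the 5 root markers, by up to -4.08 for IRT1.

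Beside the salt responses, root markers and pathway genes moved as follows. Of the 5 root markers 3 rose in VSR156, led by LSI2 (3.45, adjusted p = 1.43e-07), and 3 fell in CSR11, led by IRT1 (-2.70, adjusted p = 1.53e-05). All 5 were called in the difference between the responses, with a median of 3.61. Of the 7 leaf markers 3 fell in each variety. Of the 7 group A phosphatases 4 rose in VSR156, led by PP2C30 (3.30, adjusted p = 1.17e-05), and 1 in CSR11, also PP2C30 (1.30, adjusted p = 0.00678). ABA8OX2 rose in VSR156 (1.62, adjusted p = 3.5e-06), as did 2 of 10 SnRK2 kinases, led by SAPK1 (1.40, adjusted p = 0.000881), and none of these was called in CSR11. No bZIP or B3 factor was called in either variety, and ZEP1 fell in CSR11 (-1.15, adjusted p = 0.00133). The parts of tissue, RNA quality and array brightness in the salt responses of the members were not tested. In a bulk sample, fewer cells of a type and less RNA per cell cannot be told apart.

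Among other homeobox relatives, 2 of 4 further HD-Zip I genes were measured, and 1 of them, HOX13, fell in CSR11 (-1.97, adjusted p = 0.00333), at 5.68 and 4.56 under salt, against 7.51 and 6.67 in control. Neither was called under drought. Of 12 listed HD-Zip II genes, the sister class, 8 were measured. HOX7 had the largest change of these, at 9.30 and 9.03 in Vandana drought, against 5.04 and 5.19 in Vandana control (4.05, adjusted p = 2.03e-06). In IR64 it was at 8.72 and 8.56 under drought, against 8.10 and 7.79 in control. Like HOX24, it was higher in IR64 control than in Vandana control (2.83, adjusted p = 0.000112). Of the HD-Zip II genes 2 rose and 1 fell in Vandana, none was called in IR64, HOX15 rose in VSR156 (1.41, adjusted p = 0.00874) and HOX1 fell in CSR11 (-1.54, adjusted p = 0.00113).

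The order of the groups is described, by mean, for the 3 members whose brightest probe set was called in at least 2 stress comparisons. The second HOX16 probe set, called in CSR11 salt and in IR64 drought, is left out here. HOX24 ran, high to low, Vandana drought (11.37), IR64 drought (11.35), IR64 control (10.61), VSR156 salt (6.70), CSR11 salt (5.22), Vandana control (5.05), CSR11 control (4.89) and VSR156 control (4.51). The arrays of the first 2 overlapped, and the neighbours from CSR11 salt to CSR11 control differed by less than 2 standard errors. HOX22 ran IR64 drought (10.78), Vandana drought (10.59), IR64 control (10.53), Vandana control (8.46), VSR156 salt (8.01), CSR11 salt (7.01), CSR11 control (6.94) and VSR156 control (5.34), and the first 3 overlapped in part. HOX12 ran VSR156 salt (7.997), IR64 drought (7.18), CSR11 salt (6.93), CSR11 control (6.70), Vandana drought (6.69), VSR156 control (5.25), IR64 control (4.80) and Vandana control (4.36). IR64 drought, CSR11 control and Vandana drought all lay within the range of the CSR11 salt arrays (6.29 to 7.58).

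Patterns most like these were looked up over the 8 group means among 1119 genes with a symbol, as a description. HOX24 was nearest to HSF-14 (r = 0.994), PP2C68 (r = 0.992) and NRX2 (r = 0.991). HOX22 was nearest to EGY3 (r = 0.987), CRSH1 (r = 0.977) and CIPK25 (r = 0.971), and HOX12 to ACBP4 (r = 0.943), GATA17 (r = 0.919) and R40C1 (r = 0.913). All points share the arrays and their normalization, and for HOX24 the 8 means fall into 3 high and 5 low ones, which sets most of each r.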

How the data were processed

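Total RNA from 16 seedling samples (8 groups, 2 arrays each), leaf per the labels, had been hybridized to the Affymetrix rice genome array. The authors deposited linear intensities, 1 per probe set and array, made with GCOS 1.0 per the submitters' processing notes. The methods also name RMA, another GCOS version and removal of absent calls. Since the overall level of the deposited intensity values varied from array to array, no prior normalization was assumed, and no detection calls were used. The 187 control probe sets were removed from 57381, and the other 57194 were quantile-normalized. A pseudocount of 16 was added before log2, which makes fold changes of dim probe sets smaller. limma 3.58.1 in R 4.3.3 fitted 1 mean per group over all 16 arrays, with moderated variances (8 residual and 2.94 prior degrees of freedom) and Benjamini-Hochberg adjustment over all probe sets. The fit was tested on simulated data. In VSR156 salt it recovered 65% of 100 shifts of 1.5 (log2) and 94% of 100 shifts of 3, with 5 false calls among 57194 probe sets. For the salt response difference, VSR156 minus CSR11, it recovered 42% and 87% of such shifts, with 9 false calls. The simulation shifted only 100 probe sets at each size. In the data, 4430 probe sets were called in VSR156 salt and 5171 in the salt response difference. With so few shifts the adjusted p is a stricter cut-off. The simulated recovery and false calls are thus no measure of either for the salt comparisons of the data.

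The annotation pairs 22436 probe sets with a single gene and 95 with more than 1, and leaves 34663 unnamed. Entrez identifiers of the array annotation were matched to RefSeq symbols and synonyms (assembly version not used for coordinates), and all 17905 genes matched. Every probe set of each member was reported. The lists covered other HD-Zip genes, abscisic acid genes, EUI1, and leaf, root and shoot meristem markers, of which 0 of 3 meristem markers were measured. For each list the called gene with the largest change is named. The members and lists were chosen with earlier results of these data known. Sequences were not used here.

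Alternatives were deposited and median-centred values, pseudocounts of 1 and 64, a filter at a mean of 32, the methods' t-test, smaller sets of arrays, a replicate block, array weights, each array left out, the drought arrays against the other variety's control, and, chosen after seeing the data, normalization within each experiment. Replicate letters did not pair the arrays (correlations of deviations between -0.0268 and 0.0122 by variety).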

Additional observations from a re-analysis of the deposited data

Results flagged for a closer look

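The test of the difference between 2 varieties' responses to the same stress (limma, adjusted over all probe sets) passed at 10 member probe sets, 6 for salt and 4 for drought.

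For salt, VSR156 minus CSR11, the differences were 2.60 for HOX22 (adjusted p = 1.02e-05), 2.51 for HOX12 (adjusted p = 0.0395), 2.31 for the second HOX16 probe set (adjusted p = 0.0122), 1.85 for HOX24 (adjusted p = 8.11e-05), 1.39 for HOX6 (adjusted p = 0.0268) and -1.31 for HOX21 (adjusted p = 0.00529). HOX22 and HOX24 kept the call without each single array. HOX12 lost it without any one of 13 arrays, HOX6 without any one of 5, and the second HOX16 probe set without VSR156 control A (2.01, adjusted p = 0.0612). The salt arrays of VSR156 were dimmer than its controls, and their GAPDH 3′ over 5′ signal was higher. On the other side, CSR11 salt B was the dimmest array of all (mean deposited intensity 9.16). Its GAPDH signal was 6.35, against 3.05 and 2.05 in CSR11 control. All 5 root markers differed between the responses in the direction of HOX22 and HOX24. The part of brightness, RNA quality and tissue in these differences was not tested.

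For drought, IR64 minus Vandana, the differences were -5.57 for HOX24 (adjusted p = 8.2e-09), -1.89 for HOX22 (adjusted p = 4.52e-05), and -0.92 (adjusted p = 0.00403) and -1.18 (adjusted p = 0.0296) for the brighter and the dimmer HOX5 probe set. The dimmer one lost its call without any one of 7 arrays of the drought experiment (all but Vandana control A), with differences between -1.24 and -0.89. The brighter HOX5 probe set lost its call with deposited values, centred arrays, a pseudocount of 1 and the opposite variety's control. HOX24 and HOX22 lay high in IR64 control, and the differences of both turned sign when the drought arrays were compared with the opposite variety's control. That turn is set by the gap between the controls and the close drought levels, so it is no separate result.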

How the results depend on the processing

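Of the 27 calls over 8 comparisons, 19 held without each single array, and 1, HOX24 in IR64 control against Vandana control, held under each alternative but the methods' t-test after Benjamini-Hochberg adjustment, which called 0 in each stress and control comparison (unadjusted 2 in VSR156, 1 in CSR11, 1 in IR64, 4 in Vandana, 1 between the salt controls and 2 between the drought controls). That t-test after adjustment called 0 of all 57194 probe sets in each of those comparisons, so its zeros are not particular to the members. Deposited values kept 3 of the 27 and median-centred values 5. Deposited values gave 0 in CSR11, 0 in IR64, 1 in Vandana, 0 for the salt and 1 for the drought response difference, 0 between the salt and 1 between the drought controls (at an unadjusted p under 0.05 the zeros were 3, 1, 1 and 2). Of all probe sets, 0.0227%, 1.57%, 5.38%, 0.463%, 1.58%, 1.53% and 1.61% were called in that order. Centred values gave 1, 0, 2, 0, 1, 0 and 1 in the same order (zeros unadjusted 1, 3 and 2). There 0.682%, 3.45%, 8.09%, 0.6%, 2.4%, 2.59% and 2.72% of all probe sets were called. A pseudocount of 64 gave 1 in IR64, 2 in Vandana and 0 between the salt controls (0 unadjusted), and a pseudocount of 1 gave 3 and 2 for the salt and drought response differences. The shares of all probe sets called were 3.86%, 7.09% and 2.23% with 64, and 2.85% and 3.63% with 1. Only the 4 arrays of a comparison gave 0 in CSR11 (3 unadjusted), 1 in IR64 and 1 between the salt controls. Over all probe sets, that fit called 0 of 57194 in CSR11, 7.36% in IR64 and 4.14% between the salt controls. Array weights gave 3 for the salt and 7 for the drought response difference, and normalization within the experiment, chosen after seeing the data, 2 for the salt response difference and 1 between the salt controls. Of all probe sets, array weights called 3.74% and 14.4%, against 9.04% and 7.41% in the main fit. Normalization within the experiment called 1.7% and 2.97%, against 9.04% and 4.94%. Against the other variety's control, IR64 had 4, Vandana 1 and the drought response difference 2, where 10.4%, 6.28% and 3.65% of all probe sets were called, against 6.96%, 11.8% and 7.41% with the own control. The replicate block moved IR64 drought to 1 call, with the second HOX16 probe set lost (adjusted p = 0.0509), added 2 calls elsewhere and kept 26 of the 27.

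Directions turned for both HOX20 probe sets in VSR156 with deposited values (-1.49 and -1.35, uncalled in the normalized values), for HOX6 in the salt response difference with deposited values (-0.27), and, with the other control, for the drought response difference of HOX24 (5.54), HOX22 (2.26) and the dimmer HOX5 probe set (0.27). For HOX24 and HOX22 the turn with the other control is fixed by the gap between the controls and the close drought levels. Leaving out 1 array gave 3 to 4 calls in VSR156, 2 to 5 in CSR11 (5 without CSR11 salt A), 1 to 2 in IR64, 4 to 5 in Vandana, 3 to 8 for the salt response difference (3 without VSR156 control A), 3 to 4 for the drought one, 1 to 4 between the salt controls (1 without VSR156 control A) and 2 between the drought controls. The share of all probe sets called also changed with the array left out, so these ranges cannot be read as particular to the members. The arm left with 1 array is assumed to vary like the other groups. The cause of these changes was not tested. Dim arrays limit the salt comparisons, since 13 of the 14 member probe sets had deposited intensities of at most 23.3 on CSR11 salt B.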
